A study of Mus musculus with 6 samples.

Results

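The genes described here are 26 genes of GABA synthesis, transport, breakdown, reception and postsynaptic anchoring, taken by symbol from the gene lists of all 6 libraries and found there 26 of 26, among 32285 genes in all. The libraries hold RNA of single nuclei from mouse frontal lobe, 1 library per mouse. All 6 mice carried Tg-SwDI, a transgene for human amyloid precursor protein with familial mutations that deposits amyloid in brain vessels and tissue. Of these, 3 were wild type for Trem2, a receptor of microglia (SwDI/TWT), and 3 were Trem2 knockouts (SwDI/TKO). Every group therefore shares the amyloid transgene, and the comparison is of Trem2 within 1 transgenic line. The mice's ages and sexes were not given in the sources used here. Libraries are called WT1 to WT3 and KO1 to KO3 below, and the numbers pair no mice.

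GABA is the main inhibitory transmitter of the forebrain. Neurons make it from glutamate with the glutamate decarboxylases encoded by Gad1 and Gad2, load it into vesicles with the transporter encoded by Slc32a1, and release it onto ion channels (GABA-A receptors, built from alpha, beta, gamma, delta, epsilon, pi, theta and rho subunits) and onto a G protein-coupled receptor made of the Gabbr1 and Gabbr2 products (GABA-B). Transporters such as those encoded by Slc6a11 and Slc6a13 clear it, the transaminase encoded by Abat breaks it down, and gephyrin (Gphn) and neuroligin 2 (Nlgn2) hold inhibitory synapses together.

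Counts are unique molecular identifiers (UMIs), 1 per captured RNA molecule. Library totals ran from 11493087 to 51317961 UMIs, the highest being KO1, which per the file headers was counted with Cell Ranger 7.0.0 while the other 5 libraries were counted with 6.1.2. Median UMIs per nucleus were 5309.5 in that library and 1444.5 to 2465 in the others. The series states 5700 to 8100 nuclei per sample, and the files hold 5220 to 8095 barcodes per library, of which 33008 in all passed the filters used here. Clustering without the 26 genes gave 8 classes that fixed markers could name and that held enough nuclei to compare: 7866 excitatory neuron-like nuclei, 1906 cortical interneuron-like, 4782 striatal projection neuron-like, 2739 olfactory bulb inhibitory neuron-like, 1201 astrocyte-like, 917 oligodendrocyte precursor-like, 1417 microglia-like and 4764 oligodendrocyte-like. The labels give the tissue as frontal lobe, and the nuclei included ones with markers of striatal and of olfactory bulb neurons. A further 7002 nuclei stayed unnamed, and KO1 gave 2971 of them. Clusters 8, 14, 18 and 19, made of neurons, and cluster 10, made of oligodendrocytes, came almost wholly from KO1. Of the 1281 excitatory neuron-like nuclei of KO1, 1220 were in cluster 8, while the other libraries drew theirs mainly from clusters 1, 5 and 12. Of the 389 striatal projection neuron-like nuclei of KO1, 378 were in cluster 19, which held none of another library. Of its 1258 oligodendrocyte-like nuclei, 1128 were in cluster 10. With KO1 included, the excitatory, striatal and oligodendrocyte classes therefore compare different clusters, and the part of this in their fits was not tested. Unnamed clusters are called by a leading gene, as Otof neurons (1489 nuclei), Baiap3 neurons (2549) and Cdhr1 neurons (861). Trem2 itself stood at 2084, 1740 and 1010 normalized CPM in microglia of WT1 to WT3 and at 347, 780 and 507 in KO1 to KO3. The knockout libraries thus kept reads of the gene, each at a lower level than every wild type library (log2 fold change -1.30 without KO1, edgeR adjusted p = 0.11).

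Levels are given as normalized CPM, the UMIs of a gene per 1000000 UMIs of that class in that library after scaling between libraries within the class. They compare 1 gene between classes or libraries, not 1 gene with another. Unless stated otherwise, a mean and SD are over the 5 libraries of Cell Ranger 6.1.2. Since KO1 differed from the rest for most of these genes, its values are given apart.

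The stretch before the start site is shown for 4 genes, the 3 that make and load GABA, since they set inhibitory groups above excitatory neurons, and the astrocyte transporter gene Slc6a11, since its astrocyte range stood clear of the next group. All 4 lie on the + strand of GRCm38.p6, and sequence and start sites are from RefSeq, whose table held 24 of the 26 genes. Each stretch begins 250 bases before the RefSeq start and ends at the start or before any annotated exon of the gene in that window. For Gad1 this start lies inside the annotated gene, which begins at 70553072, so its stretch is not upstream of the whole gene. The motifs searched, on both strands, were the homeodomain core TAATTA, the Sp-factor motif GGGCGG and the TATA-box motif TATAAA, and capitals mark their matches.
Gad1, chr2:70561879-70562041: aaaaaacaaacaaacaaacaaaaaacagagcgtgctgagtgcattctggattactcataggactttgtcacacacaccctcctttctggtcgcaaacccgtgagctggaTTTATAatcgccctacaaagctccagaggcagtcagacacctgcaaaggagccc
Gad2, chr2:22622077-22622204: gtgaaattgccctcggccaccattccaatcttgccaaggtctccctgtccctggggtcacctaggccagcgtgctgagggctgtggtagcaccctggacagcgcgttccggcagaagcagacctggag
Slc32a1, chr2:158610508-158610757: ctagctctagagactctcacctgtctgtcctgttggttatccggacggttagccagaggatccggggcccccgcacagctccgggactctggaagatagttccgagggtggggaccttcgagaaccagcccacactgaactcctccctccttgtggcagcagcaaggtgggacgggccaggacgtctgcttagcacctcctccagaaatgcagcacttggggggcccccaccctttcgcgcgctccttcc
Slc6a11, chr6:114130991-114131240: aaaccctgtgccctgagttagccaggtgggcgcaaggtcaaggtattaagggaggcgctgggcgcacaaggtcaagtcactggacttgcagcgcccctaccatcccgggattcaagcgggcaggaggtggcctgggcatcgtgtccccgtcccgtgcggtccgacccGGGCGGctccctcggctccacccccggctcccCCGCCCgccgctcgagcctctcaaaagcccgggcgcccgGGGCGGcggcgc
The Gad1 stretch, 163 bases long, ended 88 bases before the RefSeq start and held 1 TATAAA match, 141 bases before that start. Of the 32851 RefSeq promoters, 7.78% hold this motif over the same stretch. The Slc6a11 stretch of 250 bases held 3 GGGCGG matches and 25 CpG pairs, where 32.7% of promoters hold that motif and the median promoter holds 6 CpG pairs. None of the motifs was found in the 128 bases of Gad2 or the 250 bases of Slc32a1, and these letters say nothing of which factors bind there.

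Gad1, Gad2 and Slc32a1 marked the same 5 groups of nuclei: cortical interneurons, olfactory bulb inhibitory neurons, Otof neurons, Baiap3 neurons and striatal projection neurons. Gad1 (ENSMUSG00000070880) averaged 342 ± 95.1 normalized CPM (SD, n = 5) in cortical interneurons, 122 ± 15.7 in striatal projection neurons and 10.5 ± 4.14 in excitatory neurons. In cortical interneurons it stood at 329, 345 and 312 in WT1 to WT3 and at 432, 231 and 493 in KO1 to KO3. In striatal projection neurons the same order gave 115, 115 and 107, then 139, 125 and 147. The 3 striatal knockout values all lay above the 3 wild type values, but no genotype difference was called. In interneurons KO2 was the lowest and KO3 the highest library. Gad2 (ENSMUSG00000026787) averaged 285 ± 65.8 in cortical interneurons, 188 ± 37.4 in striatal projection neurons and 11.2 ± 5.11 in excitatory neurons, and Slc32a1 (ENSMUSG00000037771) averaged 292 ± 65.2, 146 ± 32.1 and 11.9 ± 2.80 in those classes. The lowest cortical interneuron library exceeded the highest excitatory library for each of these 3 genes.

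**Figure D1:**
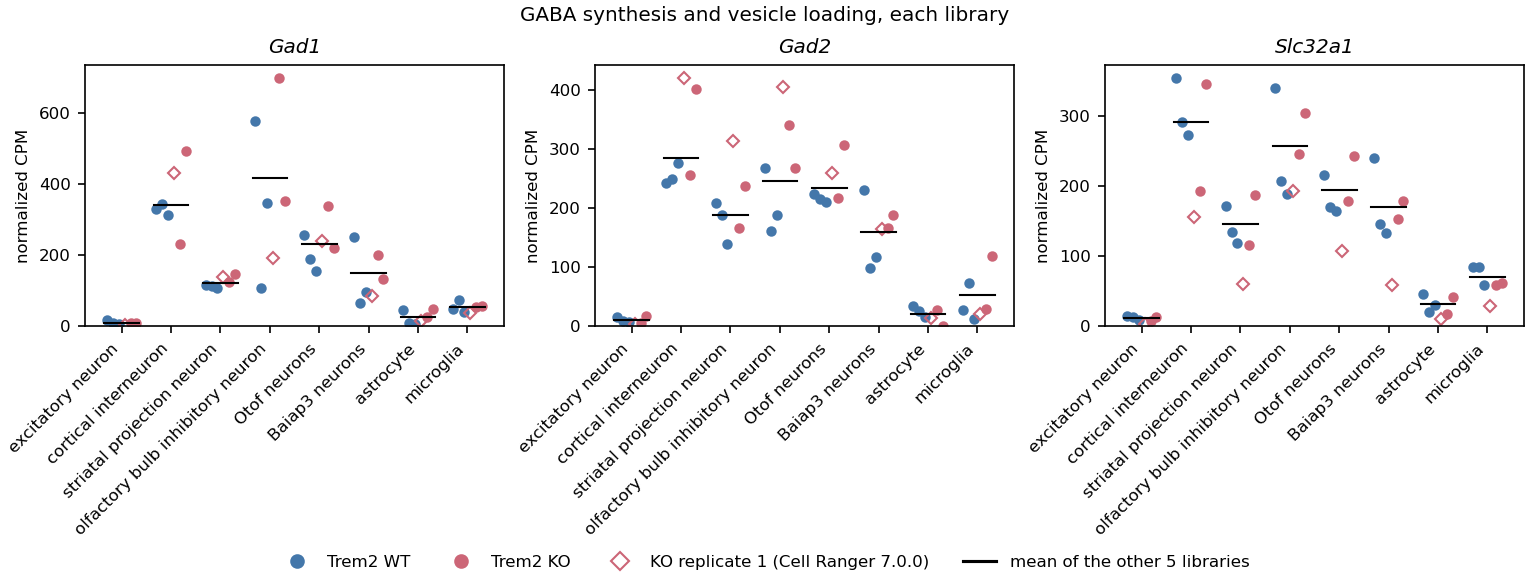
Normalized CPM of Gad1, Gad2 and Slc32a1 (linear y axes) in 8 classes or groups of nuclei (x axes), with 1 point per library, blue for Trem2 wild type and red for Trem2 knockout, an open diamond for KO1 and a bar at the mean of the other 5 libraries. Each inhibitory group sits above excitatory neurons for the 3 genes, and Gad1 in olfactory bulb inhibitory neurons runs from 108 to 700 among the 5 libraries.

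Gad1 in olfactory bulb inhibitory neurons was the least steady of these values. It stood at 577, 108 and 347 normalized CPM in WT1 to WT3 and at 193, 700 and 353 in KO1 to KO3. WT1 and KO2 were high, and they also supplied 1409 and 950 of the 2739 nuclei, against 84, 159, 21 and 116 in the other 4. The summed level of the 12 markers of that class moved with it, at 7200, 1646 and 3496 CPM from WT1 to WT3 and 3603, 7249 and 4064 from KO1 to KO3, and the part of these differences in the Gad1 values was not tested. In WT2 the same markers stood at 1592 CPM in striatal projection neurons and 3611 in Otof neurons. The class name is thus poorly borne out in WT2, which is part of every 5-library mean of this class.

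The balance of Gad1 and Gad2 UMIs differed between some of the inhibitory groups. The share of Gad1 in the sum of Gad1 and Gad2 UMIs was 39.6% ± 3.31 (SD, n = 5) in striatal projection neurons, from 35.6% to 43.3%, and 54.2% ± 4.27 in cortical interneurons, from 47.4% to 57.9%, so the 2 ranges did not overlap. KO1 gave 30.8% and 50.7%, in the same order. Otof neurons had 49.1% ± 8.05, from 41.7% to 61.0%, and Baiap3 neurons 46.7% ± 6.38, from 40.2% to 54.5%. Both of these ranges overlapped those of striatal projection neurons and of cortical interneurons. Within the interneurons, the nuclei led by Sst had 56.9% ± 6.47 and those led by Vip 49.6% ± 4.21, with overlapping ranges. In olfactory bulb inhibitory neurons the share was 68.3%, 64.8%, 67.2% and 56.9% in 4 of the 5 libraries and 40.0% in WT2, which had only 35 such UMIs (exact 95% binomial interval 23.9% to 57.9%, counting error only). That class joined clusters led by Vipr2 and by Trh. In WT1 the share was 72.8% in the Vipr2 nuclei (interval 70.0% to 75.5%) and 39.9% in the Trh nuclei (32.3% to 47.8%), and in KO2 it was 73.3% (70.3% to 76.2%) and 45.9% (39.8% to 52.2%). The Vipr2 share was also the higher in WT3 and in KO3, at 60.3% and 52.3% in the latter, with overlapping intervals in both. It was the lower in WT2, at 29.6% and 75.0%, and in KO1, at 25.9% and 75.0%, where the Trh nuclei had 8 and 4 such UMIs. Of the 6 libraries, WT1 and KO2 were the only ones whose intervals for the 2 clusters did not overlap.

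UMIs of these genes were also found in glia, and their source was not tested. Microglia averaged 53.8 ± 12.5 normalized CPM of Gad1 and 70.1 ± 13.9 of Slc32a1, which is above the excitatory neurons. As shares of nuclei, 2.20% to 3.57% of microglia in the 5 libraries had a Gad1 UMI at median depths of 677 to 734 UMIs, and 1.78% to 5.55% of excitatory neurons did at 2650 to 3760. Oligodendrocyte precursors had a wider share of 0.746% to 9.21% at 978 to 1326 UMIs, and 17.6% in KO1 at 3134. In cortical interneurons the share was 47.9% to 69.6% at 2477 to 3884 UMIs, and in striatal projection neurons 23.1% to 39.1% at 2441 to 3036. Whether the Gad1 values in microglia and excitatory neurons are background or expression was not tested. Gad1 also overlaps the antisense gene Gad1os, and Slc32a1 and Gphn each overlap 1 gene on the other strand.

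Abat, which breaks GABA down, was high in the inhibitory groups and in astrocytes, and low in excitatory neurons. It averaged 74.5 ± 9.03 normalized CPM in striatal projection neurons, 65.6 ± 12.6 in cortical interneurons, 66.5 ± 18.1 in astrocytes and 10.8 ± 2.10 in excitatory neurons. Its ranges in striatal projection neurons, 59.4 to 82.9, and astrocytes, 50.5 to 95.6, overlapped.

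Slc6a11, which encodes the GABA transporter of astrocytes, stood at 346, 272 and 243 normalized CPM in astrocytes of WT1 to WT3 and at 540, 393 and 472 in KO1 to KO3. All 3 knockout libraries lay above all 3 wild type libraries. The next group, oligodendrocyte precursors, averaged 25.7 ± 15.8, and striatal projection neurons were lowest at 2.58 ± 1.43. The share of astrocytes with a Slc6a11 UMI was 20.9% to 41.9% in the 5 libraries, at median depths of 1154 to 1380 UMIs, against 0.831% to 2.38% of excitatory neurons.

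Slc6a13, a GABA and taurine transporter gene known from the meninges, was almost confined to 1 unnamed cluster of 290 nuclei led by Ptgds, Slc7a11 and Ranbp3l. That cluster held 252 of the gene's 286 UMIs in the 5 libraries, 1365 CPM (exact Poisson 95% interval 1202 to 1544, counting error only). Its nuclei with a Slc6a13 UMI made up 72.7%, 87.2% and 58.6% in WT1 to WT3 and 84.2% and 74.3% in KO1 and KO3, and KO2 had only 3 such nuclei, each with a UMI. The fibroblast list was also the best match of this cluster, with 8 markers passing, among them Dcn and Col1a1, although it stayed unnamed under the naming rule. The cluster that was named fibroblast-like, with 6 markers passing and 108 nuclei, had no Slc6a13 UMI in any library, where 3 UMIs in the 5 libraries would be 26.4 CPM.

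**Figure D2:**
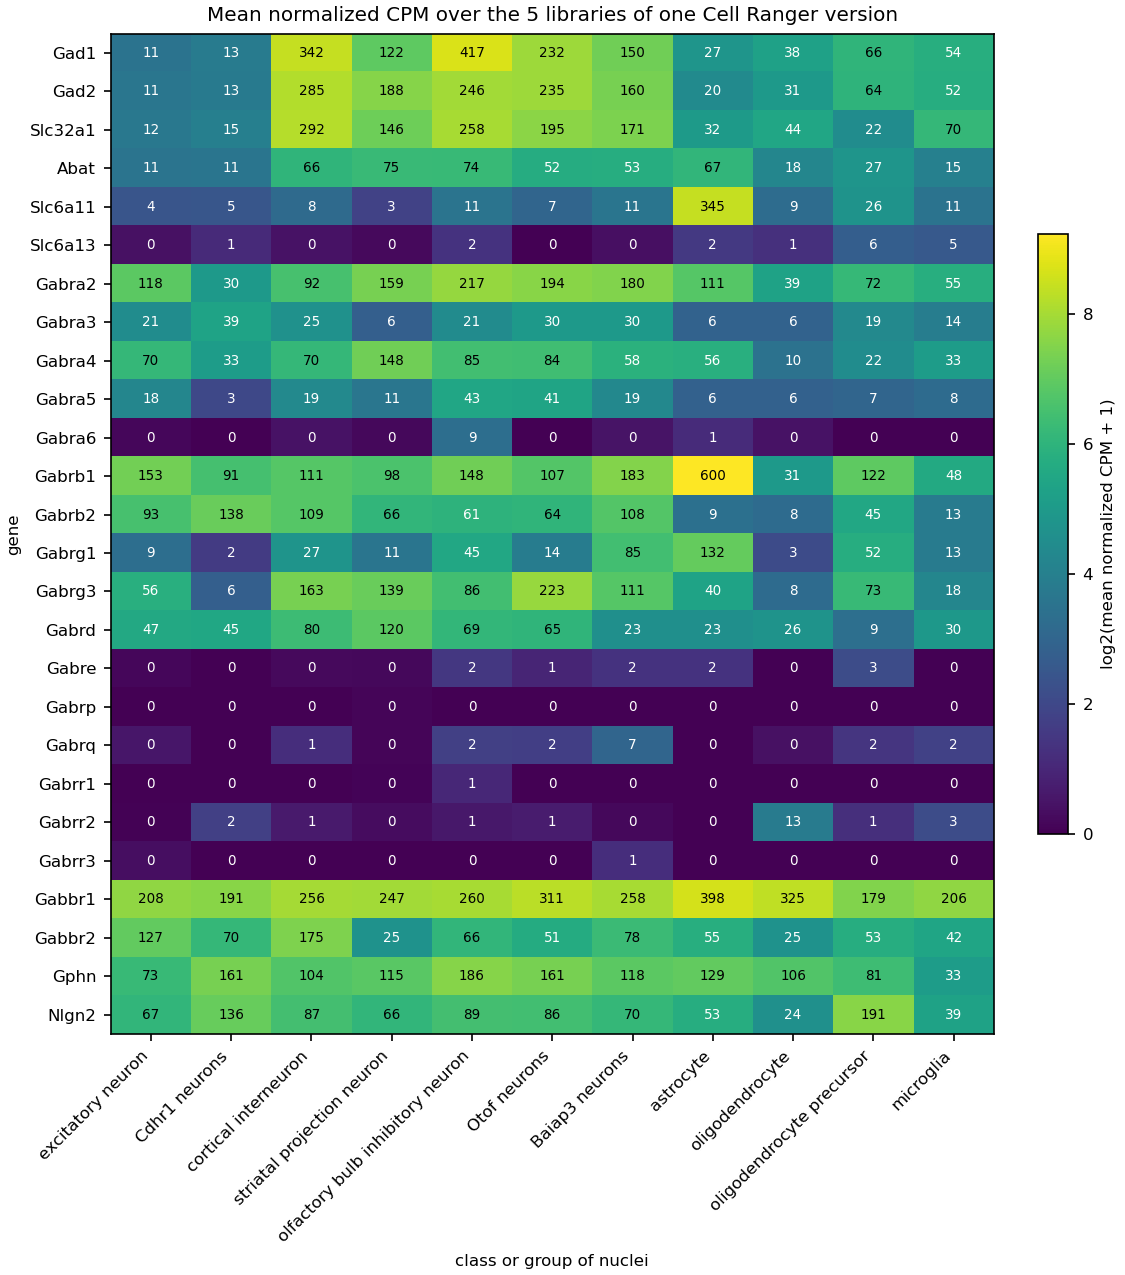
Mean normalized CPM over the 5 libraries of Cell Ranger 6.1.2 for the 26 genes (rows) in 11 classes or groups of nuclei (columns), with the color giving log2 of the mean plus 1 and the number in each cell the mean, rounded to a whole number. Gabrb1 and Slc6a11 peak in astrocytes at 600 and 345, while Gabrp and Gabrr1 are at or near 0 in all 11 groups.

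Among the alpha subunits of GABA-A receptors, Gabra4 was highest in striatal projection neurons. It stood at 157, 142 and 184 normalized CPM there in WT1 to WT3 and at 278, 121 and 134 in KO1 to KO3. Its mean over the 5 libraries was 148 ± 24.2, against 85.3 ± 15.2 in olfactory bulb inhibitory neurons, the next group, and the 2 ranges did not overlap. Gabrd, whose delta subunit forms extrasynaptic receptors with alpha subunits such as that of Gabra4, also had its highest mean in striatal projection neurons, 120 ± 17.2, followed by cortical interneurons at 79.9 ± 23.5. The lowest striatal library for Gabrd, at 105, lay within the interneuron range, whose top was 105 as well, so these neighbours were not separated.

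Gabra2 had its highest means in olfactory bulb inhibitory neurons, 217 ± 26.9, Otof neurons, 194 ± 47.9, Baiap3 neurons, 180 ± 49.2, and striatal projection neurons, 159 ± 17.7, and neighbours in that order had overlapping ranges. It was 30.4 ± 19.2 in Cdhr1 neurons. Gabra3 ran from 5.99 ± 2.56 in striatal projection neurons to 39.5 ± 25.3 in Cdhr1 neurons. Gabra5, whose subunit is known for tonic inhibition in hippocampus, split the libraries of Otof neurons, with 59.7, 3.21 and 23.8 from WT1 to WT3 and 54.0, 104 and 15.8 from KO1 to KO3. WT1, KO1 and KO2 were the high libraries, so both genotypes had high and low ones. Gabra6, a subunit gene of cerebellar granule cells, had 22 UMIs in all 5 libraries together. Gabra5 overlaps 2 genes on the other strand and Gabra4 overlaps Gabrb1, and whether the counting used strand was not given in the sources used here.

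Gabrb1 was highest in astrocytes, at 610, 519 and 723 normalized CPM in WT1 to WT3 and at 4246, 599 and 550 in KO1 to KO3. The 5-library mean of 600 ± 78.0 stood above 183 ± 61.1 in Baiap3 neurons with no overlap. Gabrg1 shared that top class, with 132 ± 52.2 in astrocytes, but Baiap3 neurons followed at 85.1 ± 13.3 and the ranges overlapped. Gabrb2 was a neuronal gene by contrast, with 138 ± 57.6 in Cdhr1 neurons, 109 ± 12.2 in cortical interneurons, whose ranges overlapped, and 9.49 ± 8.65 in astrocytes. Gabrg3 averaged 223 ± 41.4 in Otof neurons, 163 ± 30.3 in cortical interneurons, 139 ± 23.3 in striatal projection neurons and 1.46 to 10.4 over the libraries of Cdhr1 neurons. The first 3 of these overlapped with their neighbour in that order.

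Within cortical interneurons, receptor genes differed between the 2 clusters. Gabrg1 averaged 35.4 ± 14.8 in nuclei led by Sst and 5.58 ± 7.81 in those led by Vip. Gabrb2 ran the other way, with 92.8 ± 17.4 and 177 ± 13.5, and so did Gabra5, with 12.8 ± 7.47 and 41.5 ± 12.2. For Gabrb2 and Gabra5 the ranges of the 2 clusters did not overlap, whereas those of Gabrg1 did.

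Of the rho subunit genes, Gabrr2 was seen mainly in oligodendrocytes. It stood at 18.2, 10.4 and 12.5 normalized CPM in WT1 to WT3 and at 44.5, 17.6 and 8.33 in KO1 to KO3, and oligodendrocytes held 40 of its 60 UMIs in the 5 libraries. Its mean of 13.4 ± 4.38 there was followed by 3.43 ± 5.07 in microglia, with overlapping ranges. By share, 0.739% to 1.65% of oligodendrocytes had a Gabrr2 UMI in those libraries, and 0% to 0.0883% of excitatory neurons, although oligodendrocytes were the shallower class at median depths of 776 to 870 UMIs. Gabrr1, Gabrr3, Gabre, Gabrp and Gabrq were near the limit of detection, with 10, 13, 34, 2 and 117 UMIs over all 6 libraries.

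**Figure D3:**
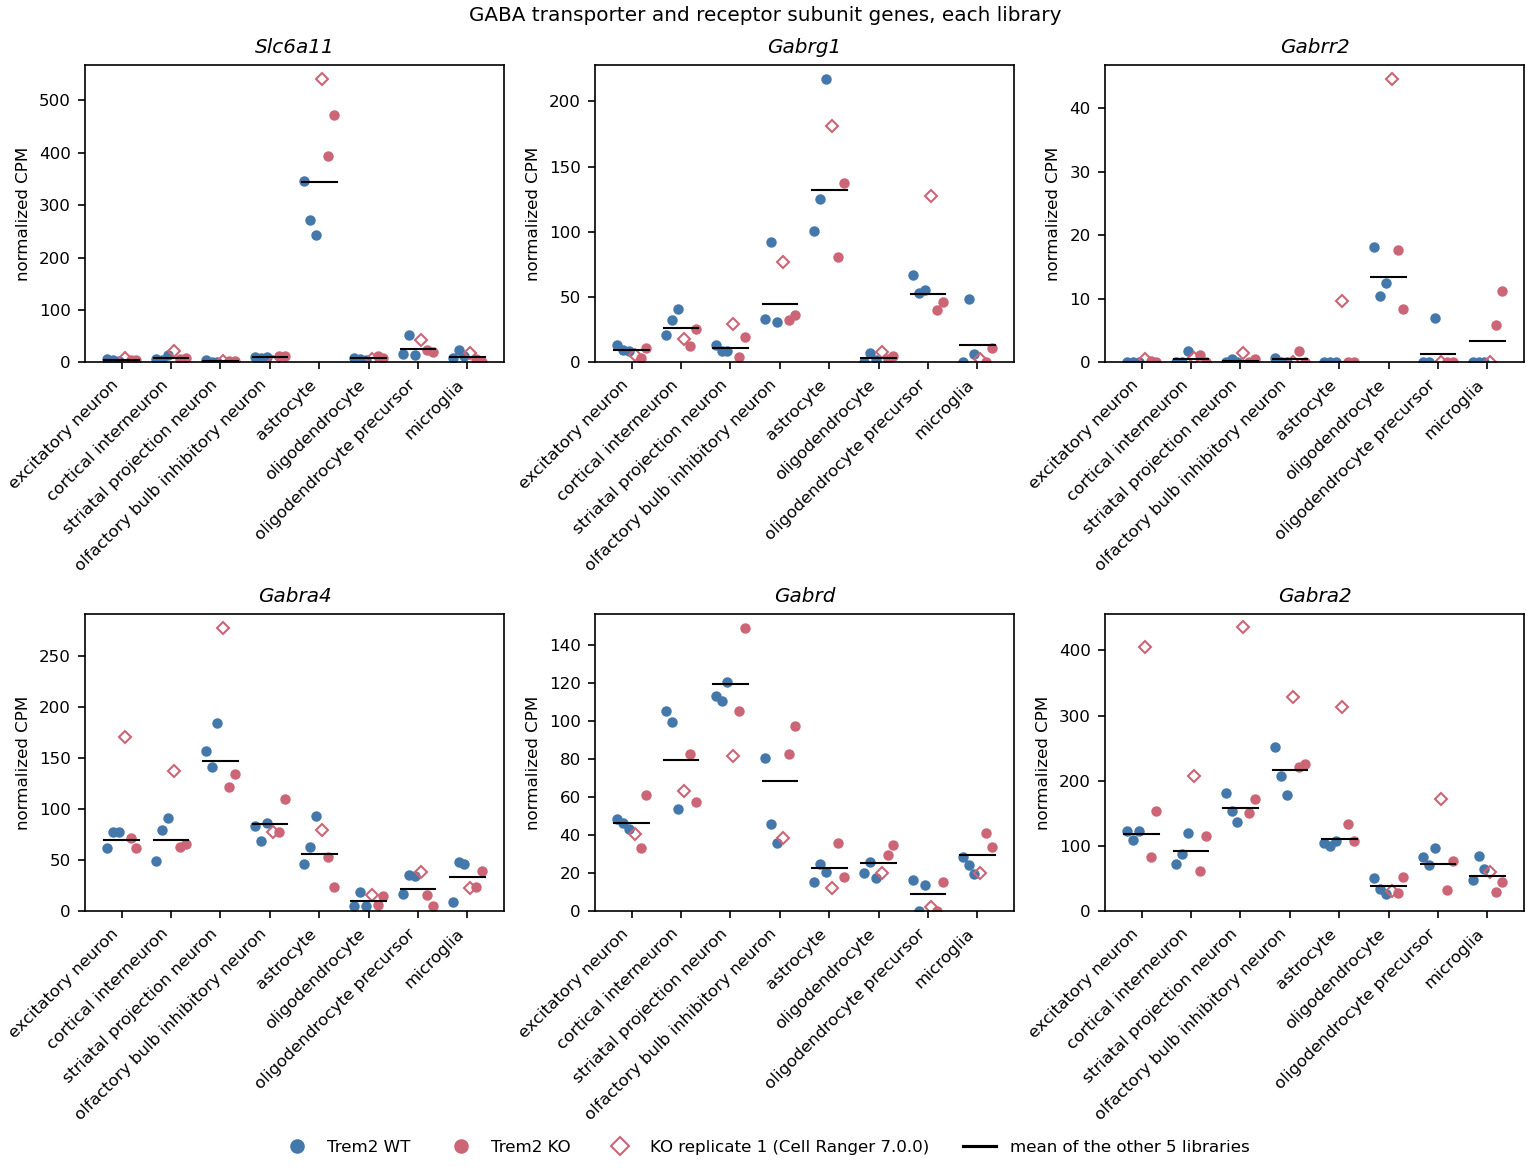
Normalized CPM (linear y axes) of Slc6a11, Gabrg1, Gabrr2, Gabra4, Gabrd and Gabra2 in 8 named classes (x axes), with 1 point per library, blue for Trem2 wild type and red for Trem2 knockout, an open diamond for KO1 and a bar at the mean of the other 5 libraries. Slc6a11 is set apart in astrocytes and Gabra4 in striatal projection neurons, Gabrr2 has its highest mean in oligodendrocytes, and the diamond lies far above the other points for Gabra2 in excitatory and striatal projection neurons.

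The GABA-B receptor genes did not follow each other. Gabbr1, which binds GABA, was broad, from 179 ± 31.8 normalized CPM in oligodendrocyte precursors to 398 ± 71.4 in astrocytes. Gabbr2, which couples the receptor to G proteins, spanned a wider scale, from 24.8 ± 5.95 in striatal projection neurons and 24.8 ± 5.39 in oligodendrocytes to 175 ± 26.2 in cortical interneurons. In striatal projection neurons the 5 libraries of Gabbr2 lay between 16.6 and 29.6, all below the lowest excitatory library at 100.

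Gphn and Nlgn2 were present in neurons and glia alike. Nlgn2, whose product sits at inhibitory synapses, had its highest mean in oligodendrocyte precursors, at 134, 186 and 181 normalized CPM in WT1 to WT3 and at 119, 216 and 237 in KO1 to KO3. Cdhr1 neurons followed at 136 ± 52.5 with overlapping ranges, and oligodendrocytes had 23.7 ± 4.39, with no overlap. Gphn ran from 33.3 ± 29.9 in microglia to 186 ± 50.8 in olfactory bulb inhibitory neurons, and its ranges in excitatory neurons, 56.8 to 87.3, and cortical interneurons, 82.7 to 117, overlapped.

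KO1 stood apart for these genes along their intron length. Over all nuclei, where a share of nuclei and a level per nucleus cannot be told apart, Gabrg3, with 658790 bases of annotated intron, was 741 CPM in that library and 81.4 to 105 in the others, 8.05 times as high. Gphn was 6.81 times and Gabrb1 5.95 times as high there. At the other end, Slc32a1, with 2185 intron bases, stood at 24.5 CPM against 75.0 to 140, and Nlgn2 with 8878 bases at 33.3 against 60.5 to 84.4. Across the 21 genes with enough UMIs to compare, Spearman's rho between intron length and this ratio was 0.91 and Pearson's r with log10 length was 0.91, a description across genes that share the same libraries. All 16315 genes with such counts showed the same order, with median log2 ratios of -1.17, -0.84, -0.52, -0.07 and 0.85 over 5 equal groups of genes from the shortest to the longest introns. Within classes, rho was 0.95 over 17 of the genes in cortical interneurons, 0.97 over 17 in striatal projection neurons, 0.89 over 18 in excitatory neurons, 0.88 over 9 in astrocytes and 0.70 over 11 in oligodendrocytes. Whether intronic reads entered the counts was not given in the sources used here. KO2 and KO3, also knockouts, are among the other 5 libraries, whose Gabrg3 range was 81.4 to 105 CPM. The version and the mouse cannot be told apart in 1 library, and the part of either was not tested.

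**Figure D4:**
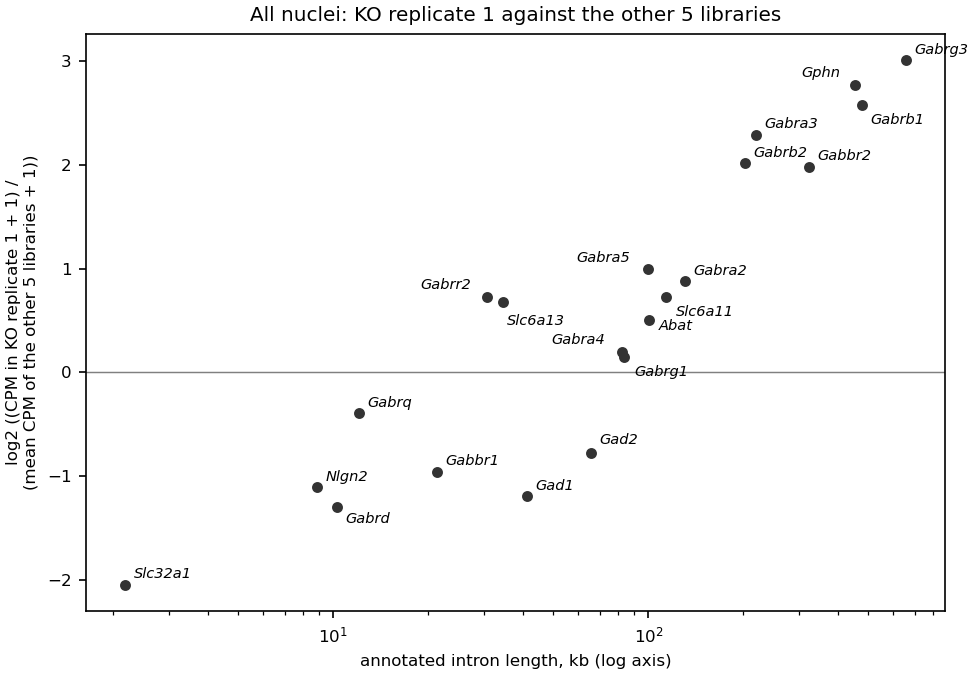
Each point is 1 of 21 genes, with its annotated intron length in kb on a log x axis and, on the y axis, log2 of the CPM in KO1 plus 1 over the mean CPM of the other 5 libraries plus 1, for all nuclei together. The ratio climbs from -2.05 for Slc32a1 to 3.01 for Gabrg3.

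The genotype comparison asks whether loss of Trem2 in Tg-SwDI mice came with a change in these genes in any class. With all 6 libraries, 19 of the 26 genes passed the filter on low counts in at least 1 of the 8 named classes, giving 99 gene and class pairs, and none was called by edgeR's quasi-likelihood test with Benjamini-Hochberg adjustment at 0.05 (smallest adjusted p = 0.59). The background was the same, since 0 of 13367 genes were called in excitatory neurons, 0 of 10003 in cortical interneurons and 0 of 11637 in striatal projection neurons, and none in the other 5 classes (0.0% each). At an unadjusted p under 0.05 there were 7 of the 99 pairs, where the share of all genes was 4.29% in excitatory neurons, 6.47% in cortical interneurons, 3.99% in striatal projection neurons, 2.12% in olfactory bulb inhibitory neurons, 8.11% in astrocytes, 6.22% in oligodendrocytes, 6.34% in oligodendrocyte precursors and 6.19% in microglia. In 73 pairs the knockout estimate was the higher, where 51.7% to 55.5% of all genes had a higher one in the 8 classes. The 7 genes that were never tested in a named class were Gabra6, Gabre, Gabrp, Gabrq, Gabrr1, Gabrr3 and Slc6a13.

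Without KO1, 0 of 102 pairs were called (smallest adjusted p = 0.76) and the knockout estimate was the higher in 53. Over all genes, 49.3% to 53.4% had a higher estimate in the named classes. Of all genes, 1 was called in oligodendrocytes (0.0125%), 5 in oligodendrocyte precursors (0.143%) and 1 in microglia (0.0223%), and in the other named classes 0 were. None of these is among the 26, and they are named after their values were seen: C4b, then Bmp4, Bcas1, Fyn, Epb41l2 and 9530059O14Rik, then Gm26917. The median log2 fold change of the tested genes, knockout over wild type, went from 0.67 to 0.01 in excitatory neurons, from 0.47 to -0.13 in cortical interneurons, from 0.82 to 0.11 in striatal projection neurons and from 0.87 to -0.03 in astrocytes. Over all genes tested, the medians in the 5 libraries were 0.02, 0.02, 0.02 and -0.01 in these classes. In cortical interneurons 14 of 17 genes had a lower estimate and 3 a higher one, where 52.6% of all genes had a higher one, and none of the 17 passed the test.

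**Figure D5:**
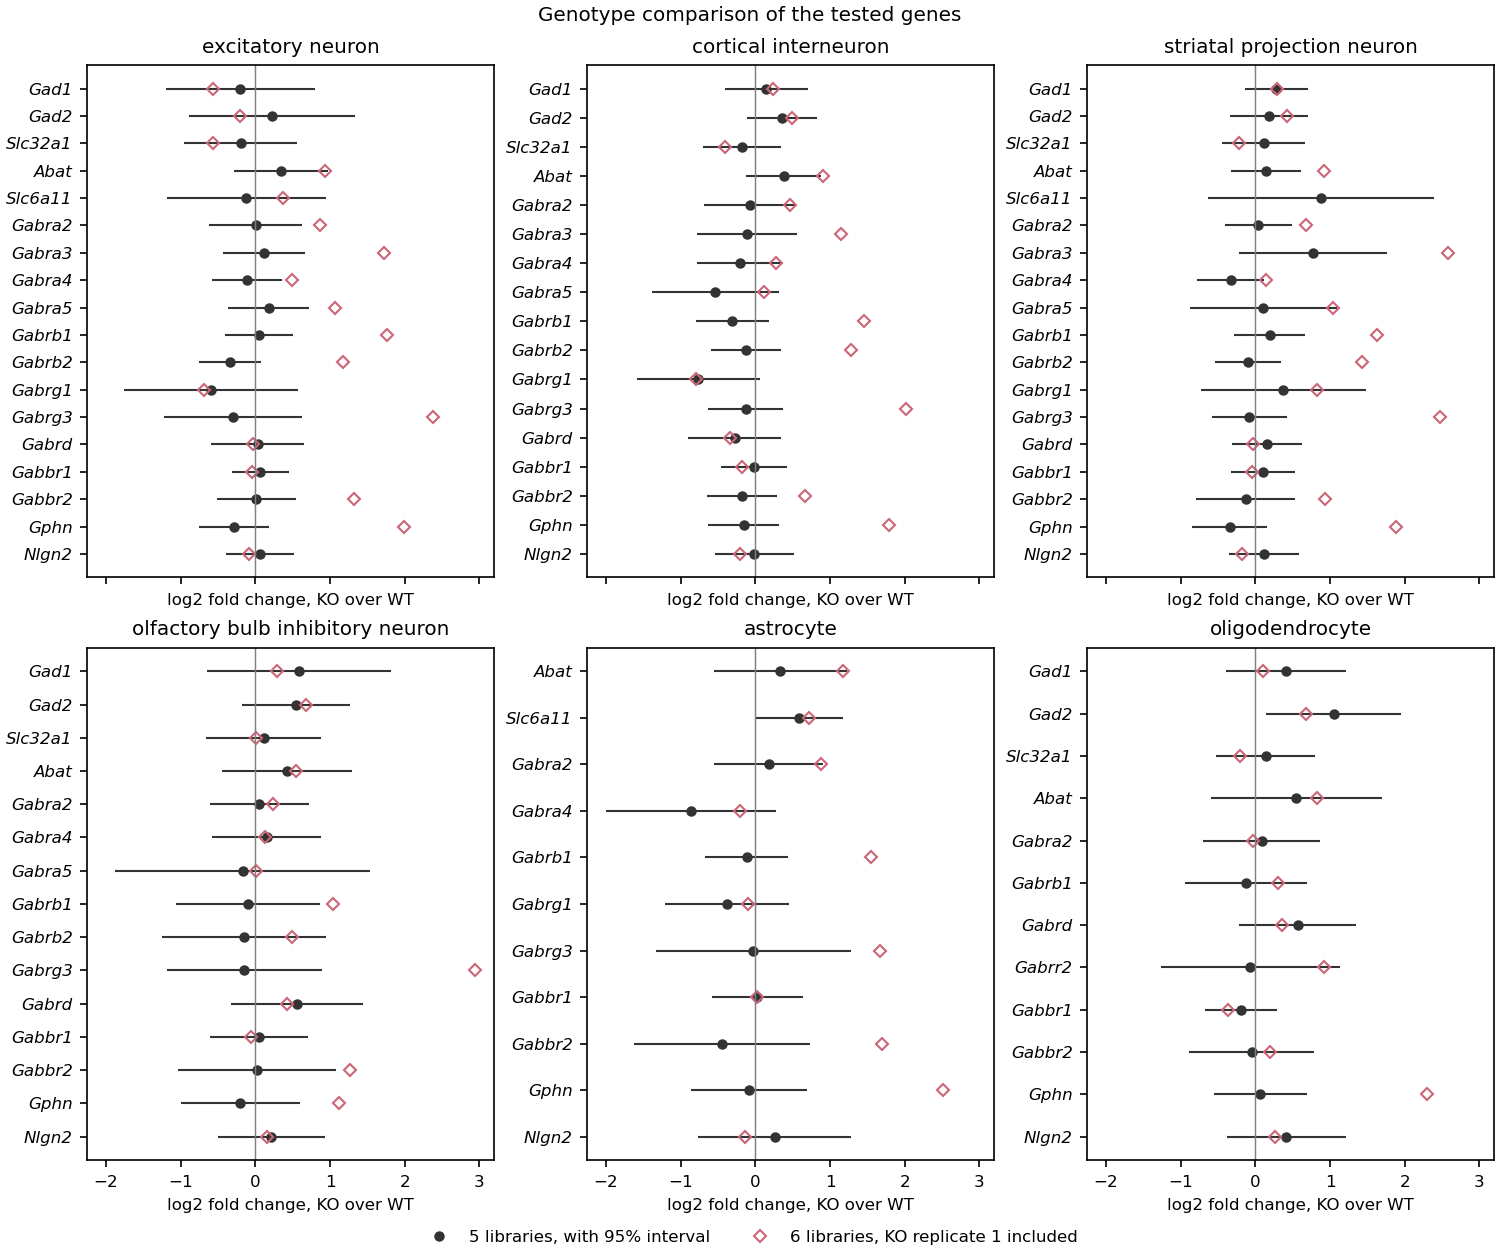
Log2 fold change, knockout over wild type (x axes), of each tested gene (y axes) in 6 classes, with filled points and bars for the estimate and 95% interval over 5 libraries and open red diamonds for the estimate over all 6. In excitatory neurons the diamonds of Gabrg3, Gphn, Gabrb1 and Gabra3 lie from 1.72 to 2.37 and their filled points from -0.29 to 0.12, while in striatal projection neurons the filled point of Gabra3 is at 0.77 with an interval from -0.22 to 1.76.

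The genes that make and load GABA gave narrow limits in cortical interneurons. Over the 5 libraries the log2 fold change was 0.15 for Gad1 (95% interval -0.41 to 0.71), 0.36 for Gad2 (-0.11 to 0.83) and -0.18 for Slc32a1 (-0.70 to 0.35), each with an edgeR adjusted p of 0.999. Leaving out 1 more library moved Gad1 between -0.51 and 0.58 and Slc32a1 between -0.67 and 0.18. For Gabbr1 in excitatory neurons the estimate was 0.07 (-0.32 to 0.45). These intervals do not show that the genotypes were alike, but they lie within 1 log2 unit of 0.

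Gabrg3 in cortical interneurons differed between the fits with and without KO1. Its values were 173, 164 and 169 normalized CPM in WT1 to WT3 and 1732, 195 and 113 in KO1 to KO3. The knockout estimate was 2.01 on the log2 scale with 6 libraries (SE 0.91, edgeR adjusted p = 0.65) and -0.13 with 5 (SE 0.24, adjusted p = 0.999). Gabrb1 in astrocytes went likewise from 1.55 to -0.12.

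Of the 102 pairs, 2 had an unadjusted p under 0.05 in the 5 libraries, Gphn in oligodendrocyte precursors and Gad2 in oligodendrocytes. Over all genes that share was 2.83% in excitatory neurons, 3.57% in cortical interneurons, 3.14% in striatal projection neurons, 1.34% in olfactory bulb inhibitory neurons, 4.41% in astrocytes, 2.69% in oligodendrocytes and 5.14% in microglia. Gphn stood at 109, 124 and 97.5 normalized CPM in wild type oligodendrocyte precursors and at 40.0 and 36.1 in KO2 and KO3, a log2 fold change of -1.51 (SE 0.55, edgeR adjusted p = 0.76), where 4.63% of all genes in that class had an unadjusted p under 0.05. KO1 had 1145, the highest of all, and 53 UMIs stood behind the other 5 values. Gad2 in oligodendrocytes differed by 1.05 (SE 0.43, edgeR adjusted p = 0.9998), with 27.4, 24.4 and 12.5 in wild type and 26.5 and 65.0 in KO2 and KO3, so the groups overlapped, and leaving out 1 more library moved it between 0.29 and 1.56.

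Slc6a11 in astrocytes had an estimate of 0.58 (95% interval -0.0044 to 1.17, edgeR adjusted p = 0.9995) in the 5 libraries and 0.71 in all 6, and it stayed between 0.38 and 0.76 when 1 more library was left out. Abat in cortical interneurons stood at 56.2, 58.9 and 60.6 from WT1 to WT3 and 174, 64.8 and 87.3 from KO1 to KO3, a log2 fold change of 0.90 with 6 libraries (edgeR adjusted p = 0.65) and 0.38 with 5 (adjusted p = 0.999). The groups did not overlap for either gene, and neither passed the test. In the 5 libraries, 16 of the 102 pairs had no overlap of the genotypes, and the share over all genes is not given here.

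The change by genotype was also compared between excitatory neurons and cortical interneurons within mice. No gene was called as differing between them by edgeR, 0 of 15219 with 6 libraries and 0 of 13394 with 5 (0.0% each), at unadjusted counts of 634 and 422. Of the 18 genes of this set tested, 3 reached an unadjusted p under 0.05 with 6 libraries (Gabbr2, Gabra5 and Gabra3) and 0 with 5. The count of called genes rested on single libraries, at 7 without KO2 and 72 without KO3, where Gad2 was among them (excitatory minus interneuron log2 difference -1.75, SE 0.33, edgeR adjusted p = 0.0057). In that fit KO1 is 1 of only 2 knockout libraries, and the Gad2 difference was -0.87 with all 6 libraries and -0.18 without KO1, not called in either.

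Class sizes were compared as shares of named neurons. Cortical interneurons made up 6.38%, 11.9% and 11.7% in WT1 to WT3 and 22.7%, 7.83% and 8.28% in KO1 to KO3 (exact permutation test, two-sided p = 0.8, Benjamini-Hochberg adjusted p = 0.9 over 3 classes). Striatal projection neurons were 27.1% ± 9.62 in wild type and 29.0% ± 14.6 in knockout (n = 3 each, exact permutation p = 0.9, adjusted 0.9). Olfactory bulb inhibitory neurons ranged from 0.960% in KO1 to 42.8% in WT1 (exact permutation p = 0.7, adjusted 0.9). With 3 mice against 3 this test cannot go below 0.1. Unnamed nuclei made up 39.8% of KO1 and 7.54% to 22.1% of the other libraries, and their part in these shares was not tested. Those of KO1 include 850 nuclei of cluster 14 and 507 of cluster 18, whose best-matching marker list was that of excitatory neurons. These are missing from the named neurons of KO1, so its shares are not like those of the other libraries.

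Other genes of the inhibitory synapse and of the GABA cycle were followed in a list of 23. With the filter on low counts, none was called in any named class with 6 or with 5 libraries by edgeR. Of 22 tested in cortical interneurons without KO1, 14 had a higher and 8 a lower knockout estimate, with a median of 0.13. Over all genes tested there, 52.6% had a higher one. Kctd8, an auxiliary subunit gene of GABA-B receptors, stood at 14.1, 16.4 and 21.4 normalized CPM in interneurons of WT1 to WT3 and at 338, 26.2 and 31.0 in KO1 to KO3 (log2 fold change 0.70 in the 5 libraries, edgeR adjusted p = 0.999). Plcl1, whose product binds GABA-A receptor trafficking proteins, stood at 19.7, 20.8 and 8.39 from WT1 to WT3 and at 164, 22.8 and 25.3 from KO1 to KO3. Clptm1, which holds back GABA-A receptors on their way to the surface, was 9.47, 36.5 and 39.3 in microglia from WT1 to WT3 and 77.4, 106 and 78.8 from KO1 to KO3, a log2 fold change of 1.64 in the 5 libraries (SE 0.59, edgeR adjusted p = 0.95). It rested on 1, 3 and 6 UMIs from WT1 to WT3 and 27, 18 and 14 from KO1 to KO3. Slitrk3, a synaptic adhesion gene, was 34.0, 30.8 and 25.5 in olfactory bulb inhibitory neurons from WT1 to WT3 and 57.9, 64.7 and 60.9 from KO1 to KO3 (1.03 in the 5 libraries, SE 0.45, edgeR adjusted p = 0.9991). The Slitrk3 values of WT2 and KO1 rested on 84 and 21 nuclei. For Kctd8, Plcl1, Clptm1 and Slitrk3 all knockout libraries lay above all wild type libraries, and none of them passed the test over all genes. Genes of this list were named for having the smallest p, so the separation adds no support.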

How the data were processed

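Single-nucleus RNA was measured in 6 libraries. The deposited files are filtered matrices of UMI counts per gene and barcode, made with Cell Ranger, version 7.0.0 for knockout replicate 1 and version 6.1.2 for the other 5, per the file headers, against mm10 per the submitters' processing notes. Whether intronic reads entered was not given in the sources used here. Nuclei under 200 genes or over 5% mitochondrial UMIs were left out, and Scrublet, run at an expected doublet rate of 6%, removed 1273 of the 34281 remaining. Clustering (scanpy 1.11.5, Leiden resolution 1) used 2000 variable genes, none of them among the 26. Clusters were named from fixed marker lists, and the naming thresholds and the groups called by a leading gene were set after seeing the clusters. Counts were summed per library and class and tested with edgeR 4.0.16 (quasi-likelihood, TMM, Benjamini-Hochberg at 0.05). Alternatives used DESeq2 1.42.0, other filters and left-out libraries, some added after seeing the data. The edgeR p-values set a genotype difference against the spread between libraries, 1 per mouse. With knockout replicate 1 included, 1 of these libraries also differs in Cell Ranger version. The members and gene lists were chosen with earlier results of these data known. Named genes are the 26, up to 4 of the list of 23 per class with the smallest p, Trem2 and leading genes of clusters. Library pairs shared 8 to 18 barcodes. Binomial and Poisson intervals cover counting error only, and the intervals of fold changes come from the edgeR fit across mice.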

Additional observations from a re-analysis of the deposited data

How the results depend on the processing

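Of 120 member values, the 99 in named classes and 21 over all nuclei, 120 kept their direction with RLE size factors and with DESeq2, and none of those was called. Without knockout replicate 1, 57 of 119 kept their direction and 62 took the other, none called. With every gene with a count tested, the genes called were 109 of 19094 in olfactory bulb inhibitory neurons, 510 of 18476 in astrocytes and 312 of 19608 in oligodendrocytes. They were 432 of 18011 in oligodendrocyte precursors and 237 of 17581 in microglia. Of the 26 genes, those called among those tested were 2 of 24, 4 of 22, 1 of 23, 2 of 22 and 1 of 22 in the same order, all with knockout replicate 1 included. Of these, 7 are among the 120 values: Gphn in astrocytes, oligodendrocytes and oligodendrocyte precursors, Gabrg3 in astrocytes and olfactory bulb inhibitory neurons, and Gabbr2 and Gabrb1 in astrocytes. Of the list of 23, all of them tested in that setting, those called were 0, 2, 2, 3 and 2 in the same order of classes. DESeq2 called 1 gene in astrocytes. Without knockout replicate 1, edgeR called 1 in oligodendrocytes, 5 in oligodendrocyte precursors and 1 in microglia, and DESeq2 called 1 in excitatory neurons, 1 in striatal projection neurons, 1 in oligodendrocytes, 1 in oligodendrocyte precursors and 8 in all nuclei. Leaving out 1 further library gave 0 to 6 in cortical interneurons, 0 to 13 in striatal projection neurons, 0 to 1 in astrocytes, 0 to 9 in oligodendrocytes, 0 to 30 in oligodendrocyte precursors, 0 to 4 in microglia and 0 to 4 in all nuclei. The test between excitatory neurons and interneurons ranged from 0 to 72. The cause was not tested. No paired analysis was possible because the labels carry no replicate numbers that would pair mice of the 2 genotypes (those used here follow accession order).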
